A study of Mus musculus with 8 samples.

Results

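The cytosines whose methylation differed most between pools of cells labelled type A spermatogonia were examined. They were selected on measured values: an autosomal cytosine was taken when at least 30 reads covered it in all 8 samples and when its methylation level, the share of reads with an unconverted cytosine, was at least 50 percentage points higher in the highest sample than in the lowest. The rule did not use the group labels. It took 1450 cytosines (members below) of 2130064 listed on chromosomes 1 to 19, X and Y, which is 0.178% of the 812989 autosomal cytosines with this coverage. Because a range of this size can arise mainly where the mean level is neither very low nor very high, the 208758 of those cytosines with a mean level of 20 to 80% served as a closer background. Of the members, 1387 lay in it and made up 0.664% of it.

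The data came from reduced representation bisulfite sequencing (RRBS), in which DNA is cut at CCGG by MspI, short fragments are kept and bisulfite turns unmethylated cytosines into uracil. All 8 samples were from C3H/HeN F1 males at postnatal day 6, sorted magnetically from testis by CD49f (Itga6). In 4 control samples the dams drank tap water, and in 4 arsenic samples their tap water held sodium arsenite at 85 ppm between gestational days 8 and 18. The 8 testes of 4 mice went into each sample, so a difference between samples was a difference between pools and not between single animals. Coverage summed over the listed cytosines was between 96428439 and 133406260 per sample, a sum in which a read counts at each cytosine it covers. The median coverage of the members was 43 to 59 reads per sample, below the 58 to 84 reads of all autosomal cytosines that passed the coverage rule.

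Cytosine methylation in mammals lies mostly at CpG, a sequence that reads the same on both strands, and the maintenance enzyme DNMT1 copies the mark from the parent strand to the new one after replication. Both strands of a CpG are therefore usually in the same state in a cell. In RRBS the strands are read from different molecules after bisulfite treatment, so the other strand of a member is a second measurement that the rule did not use. Male germ cells are known for unmethylated promoters of germline genes and of maternally methylated imprinted genes by this age. In these libraries the promoters of 9 covered germline genes (among them Ddx4, Dazl and Mael) had a mean level of 81%, with samples from 77.5 to 83.6%. The promoters of 9 covered maternally methylated imprinted genes had a mean of 57%, with samples from 52.8 to 60.6%, the lowest in arsenic 1 and the highest in arsenic 4. These marker levels do not match the labelled cell type, and the part that other cells had in the members' variation was not tested.

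The sequences below show MspI fragments that carry members used in the following comparisons: fragments with 8, 4 and 3 members, the member with the largest range, and a member lower and a member higher in all arsenic pools. They were read on the plus strand of GRCm38 (C57BL/6J), with the C and G of each CpG that holds a member in capitals on either strand. For intergenic members, near a gene means that its transcript start was the nearest, at whatever distance.

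Meioc, chr11:102666311-102666450, 8 members among 19 CpGs: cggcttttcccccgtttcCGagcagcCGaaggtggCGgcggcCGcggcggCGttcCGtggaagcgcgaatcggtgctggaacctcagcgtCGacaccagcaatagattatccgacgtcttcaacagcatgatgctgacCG

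Near Grik3, chr4:125415594-125415753, 4 members among 11 CpGs: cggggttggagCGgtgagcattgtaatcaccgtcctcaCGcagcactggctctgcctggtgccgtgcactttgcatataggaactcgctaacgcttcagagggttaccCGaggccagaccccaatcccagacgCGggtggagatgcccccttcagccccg

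Zfp800 intron, chr6:28395785-28395919, 3 members among 6 CpGs: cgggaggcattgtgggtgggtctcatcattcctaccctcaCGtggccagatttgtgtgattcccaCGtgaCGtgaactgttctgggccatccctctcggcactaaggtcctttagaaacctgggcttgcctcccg

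Largest range, chr12:20312030-20312173, 1 member among 14 CpGs: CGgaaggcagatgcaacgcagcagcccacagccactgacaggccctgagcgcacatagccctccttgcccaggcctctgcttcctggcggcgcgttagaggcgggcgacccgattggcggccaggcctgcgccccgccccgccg

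Near Zfp648, chr1:154190741-154190856, 1 member among 5 CpGs: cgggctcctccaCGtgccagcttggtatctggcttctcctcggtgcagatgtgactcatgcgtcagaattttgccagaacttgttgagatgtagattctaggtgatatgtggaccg

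Plch2, chr4:155000633-155000770, 1 member among 9 CpGs: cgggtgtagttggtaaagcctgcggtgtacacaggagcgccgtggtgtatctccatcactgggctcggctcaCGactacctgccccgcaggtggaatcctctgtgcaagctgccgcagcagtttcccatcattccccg

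These fragments show both forms in which members occurred. In the Meioc fragment several CpGs varied together, whereas the fragments at chromosome 12, near Zfp648 and in Plch2 each had 1 member among CpGs that did not meet the rule.

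Members were spread over all autosomes. Their number ran from 43 on each of chromosomes 18 and 19 to 115 on chromosome 5, and per 1000 intermediate cytosines from 5.73 on chromosome 13 to 8.28 on chromosome 7. The plus strand held 51.9% of them. Most members stood alone. When members up to 1 kb apart were chained, 1450 members gave 1338 groups, of which 1247 were single cytosines, 81 were pairs, 6 had 3 members, 2 had 4, 1 had 7 and 1 had 8. Only 203 members (14%) had another member within 1 kb, while 86.5% of intermediate cytosines had another intermediate cytosine within that distance, a share that also reflects how much larger that set is. The count changed little with distance, to 175 at 100 bases and 224 at 10 kb. In 72 of the 91 groups with 2 or more members, all members were on 1 strand.

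Neighbouring members on the same strand often had the same extreme pools. Of 90 such pairs, at a median distance of 30 bases, 47 (52.2%) had the same highest sample and 40 (44.4%) the same lowest sample. Of 22 neighbouring pairs on opposite strands, at a median distance of 16.5 bases, 1 had the same highest sample and 4 the same lowest sample. These are the values that the rule selected on, and neighbours on a strand share reads, so the shares are a description.

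The clearest run of members along a strand lay at the imprinted promoter shared by Peg10 and Sgce on chromosome 6. Peg10, a retrotransposon-derived gene needed for placental development, and Sgce, which encodes epsilon-sarcoglycan, are both expressed from the paternal allele. All 7 members were on the plus strand between chr6:4747355 and chr6:4747484, 49 to 178 bases from the Peg10 start, in an MspI fragment of 136 bases. At chr6:4747484 the level was 50, 23.8, 79.7 and 55.2% in control pools 1 to 4 and 67.3, 39.7, 50 and 70.3% in arsenic pools 1 to 4. Control 3 was the highest and control 2 the lowest, and the groups overlapped. The mean over all 12 plus-strand cytosines of the fragment was 49.5, 25, 76.8 and 54.3% in control pools 1 to 4 and 65.5, 39.8, 50 and 69% in the arsenic pools. The 12 minus-strand cytosines read from this fragment held no member. Their means were 73.5, 56.3, 78.8 and 56.3% in the control pools and 47.9, 62.9, 57.8 and 80.4% in the arsenic pools. The pool means ranged over 51.8 points on the plus strand and 32.5 on the minus strand. Control 3 had the highest mean on the plus strand and the next to highest, after arsenic 4, on the minus strand, whereas the lowest pool was control 2 on the plus strand and arsenic 1 on the minus strand.

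**Figure D1:**
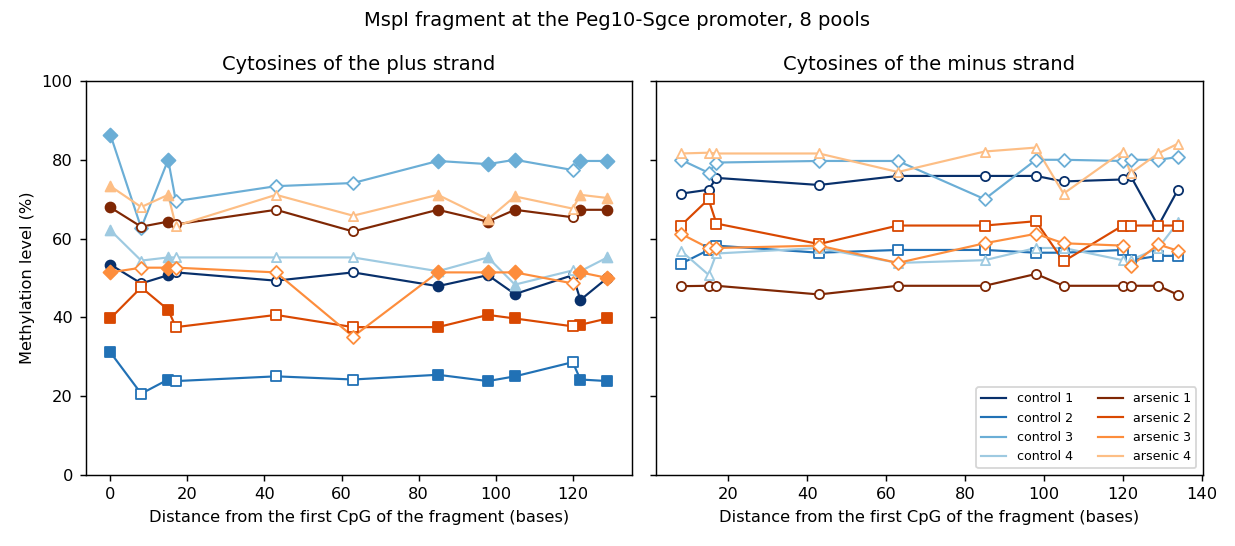
Methylation level (%) of each cytosine of the MspI fragment at the Peg10-Sgce promoter against its distance in bases from the first CpG, for the plus strand (left) and the minus strand (right), with 1 line per pool, filled symbols for members and open symbols for other cytosines. Control 2 is the lowest pool at all 12 plus-strand cytosines, with a mean of 25%, and arsenic 1 at all 12 minus-strand cytosines, with a mean of 47.9%, whereas the lines of some other pools cross.

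The largest group was in Meioc, a gene needed for germ cells to carry out meiosis. Its 8 members lay between chr11:102666330 and chr11:102666450, 745 to 865 bases from the start, 7 in a coding exon and 1 in the adjoining intron. At the minus-strand cytosine chr11:102666362 the level was 19.2, 41.9, 61.7 and 30.6% in the control pools and 44.4, 34.5, 19.2 and 0% in the arsenic pools. At the plus-strand cytosine chr11:102666353 it was 79.6, 25, 68.2 and 53.2% in the control pools and 59.1, 41.2, 52.6 and 33.3% in the arsenic pools. The groups overlapped at both cytosines. Over the fragment's 18 minus-strand cytosines of the table the pool means ranged over 40.5 points, from 15.4% in arsenic 4 to 56% in control 3, and over its 18 plus-strand cytosines over 24.9 points, from 31.3% in arsenic 2 to 56.2% in control 3.

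Another imprinted locus among the larger groups was that of Zrsr1, a paternally expressed retrogene within Commd1. Its 3 members, chr11:22973088, chr11:22973118 and chr11:22973122, were on the minus strand in the 5′UTR of Zrsr1 and 222 to 256 bases from the start of a short Commd1 transcript. At chr11:22973118 the level was 55.2, 18.8, 53 and 36.6% in the control pools and 59.5, 32.5, 60.8 and 79.7% in the arsenic pools. On the other strand of that CpG, with 127 to 221 reads per pool, it was 46.5, 37.7, 60.6 and 47.3% in the control pools and 60, 40.8, 45.7 and 52.9% in the arsenic pools. Control 2 was the lowest on both strands, and arsenic 4, highest on the member's strand, was lower than control 3 and arsenic 1 on the other. The remaining larger groups were near Traf3 and near Grik3, a kainate receptor subunit gene (4 members each), and in Sipa1, in Zfp800 and near Prnd (3 each). The last 2 groups of 3 members, in a coding exon of the keratin gene Krt86 and near 4932438H23Rik, came after these in the ranking by median range and are named to complete the count. All of these had their members on 1 strand and overlapping control and arsenic groups at each member.

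Members lay in shorter MspI fragments than the background cytosines, a difference given as shares and not tested. The median length of the MspI fragment that held a member was 157 bases, compared with 214 for intermediate cytosines and 202 for all cytosines at this coverage, and 73% of members lay in fragments under 200 bases, compared with 43.7% and 48.9%. Of the intermediate cytosines in fragments of 40 to 99 bases, 2.26% were members, with 21 members among 931 cytosines. This share was 2.08% at 100 to 119 bases, 1.26% at 120 to 149 bases, 0.812% at 150 to under 200 bases, 0.387% at 200 to 299 bases and 0.173% at 300 to 499 bases. It was 0.581% at 500 bases or more, and fragments under 40 bases held 1 member among 84 cytosines, so the relation was not a steady fall over all lengths. The median coverage of intermediate cytosines was 60 reads at 40 to 99 bases, 66 at 100 to 119 bases, 82 from 120 to under 200 bases, 70 at 200 to 299 bases, 56 at 300 to 499 bases and 70 beyond. The part of coverage in this relation was not tested.

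The read counts of the members were also more often even than those of the background. The rule did not ask whether counts were even, but its levels come from these same counts, so the shares are a description. Among non-zero counts of unmethylated reads, 74.9% were even at the members, 59.4% at intermediate cytosines and 61.1% at all cytosines of this coverage. The corresponding shares for methylated reads were 59.6, 52.5 and 53.3%. The excess was present in every pool: even unmethylated counts made up 73.8 to 76.8% at the members and 57.7 to 60.3% at intermediate cytosines. It also varied with fragment length, with 71.1% even counts among intermediate cytosines in fragments of 40 to 99 bases, 74.2% at 100 to 119 bases and 50.1% at 300 to 499 bases. At 264 members (18.2%) all 8 unmethylated counts were even, compared with 5.68% of intermediate cytosines. Unlike the shares above, these take a pool without any unmethylated read as even. What made the counts even, and its part in the members' ranges, was not tested.

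**Figure D2:**
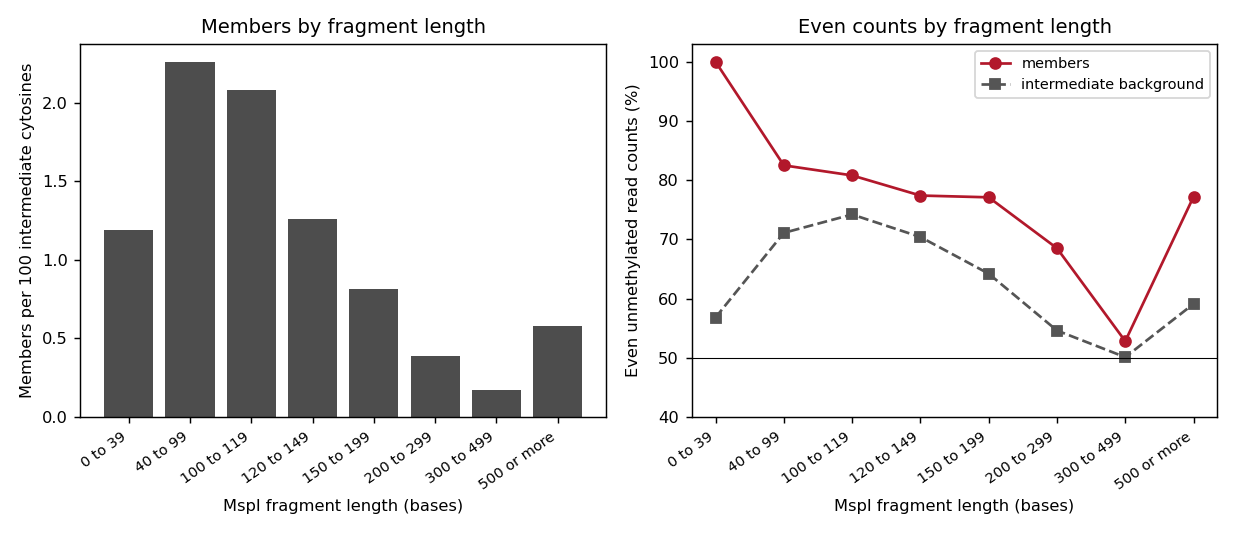
Left, members per 100 intermediate cytosines, and right, the percentage of non-zero unmethylated read counts that are even at members (circles) and intermediate cytosines (squares), both by MspI fragment length in bases. From 40 to 99 bases up to 300 to 499 bases the share of members falls from 2.26 to 0.173 per 100 and that of even counts in members from 82.5 to 52.8%, the shortest class holds 1 member, and the line at 50% marks equal numbers of even and odd counts.

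The surroundings of the members differed less from the background. Within 250 bases on either side the median number of CpGs was 11 for members, 9 for intermediate cytosines and 11 for all cytosines of this coverage, and the median GC content was 51.7, 48.3 and 49.3%. Repeats, as masked in the reference, held 14.7% of members and 14.7% of intermediate cytosines. Cytosines inside the CCGG site itself made up 16.2% of members and 22.6% of intermediate cytosines.

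By RefSeq annotation most members lay outside promoters. Intergenic sequence held 613 members (42.3%, 95% Wilson interval 39.8 to 44.8%), compared with 46.9% of intermediate cytosines, at a median distance of 41837 bases to a transcript start. Introns held 502 (34.6%, interval 32.2 to 37.1%, background 38.9%). Coding exons held 208 (14.3%, interval 12.6 to 16.2%), compared with 6.87% of intermediate cytosines, which was the widest gap among the classes. Promoters, taken from 1 kb before to 100 bases after a start, held 65 (4.48%, interval 3.53 to 5.67%, background 3.28%). The 3′UTR held 29, transcript ends 22, noncoding exons 6 and the 5′UTR 5. Members at neighbouring positions are not independent, so the intervals cover counting error only. Together 837 members lay in 711 genes, of which 612 had 1 member. After Meioc (8) and Sgce (7), the genes with most members were Grhl2, an epithelial transcription factor (5 in 3 groups), and Disp3 and Lrmda (4 each in 3 groups).

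The median range of the members was 53.3 points and the largest 82.9, and 169 members reached 60 points, 18 reached 70 and 2 reached 80. When any 1 sample was left out, 16 members kept a range of 50 points, whereas 1434 fell below it without at least 1 of the samples, a split that the rule largely sets, since most members lay just above its limit. Without both the highest and the lowest sample the median range was 25.6 points. The 95% Wilson interval of a member's level in 1 sample had a median width of 24.1 points. It takes each read as an independent count, which the excess of even counts puts in doubt, and covers counting error only. The least covered of the 8 samples was the highest or the lowest at 42.6% of members and at 30.6% of intermediate cytosines. Counts at the limit of the rule were dense: 278 members had a range from 50 to 51 points and 319 cytosines a range from 49 to 50 points. Just inside, an intronic cytosine of Metap1d, chr2:71520510, had 83.3, 100, 95.6 and 50% in the control pools and 95.3, 79.2, 94.1 and 84.6% in the arsenic pools. Just outside, a coding cytosine of Sptbn4, chr7:27391533, had 59.7, 69.1, 47.2 and 71.4% in the control pools and 82.2, 52.6, 66 and 32.3% in the arsenic pools.

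The extreme pools were not evenly distributed. Control 3 was the highest sample at 264 members (18.2%) and arsenic 4 at 113 (7.79%). Arsenic 1 was the lowest sample at 292 members (20.1%) and arsenic 4 at 108 (7.45%). Among intermediate cytosines these shares were 13.7% for control 3 as the highest and 13.7% for arsenic 1 as the lowest. For arsenic 4 they were 9.45% as the highest, also the smallest share there, and 10.8% as the lowest, where control 1 had 10.4%. Arsenic 4 had the highest summed coverage and was the extreme least often at the members. Arsenic 1 had the second lowest summed coverage, 97433083, while control 4, with the lowest sum, was the lowest sample at 190 members. The highest and lowest samples belonged to different groups at 866 members (59.7%), compared with 57.6% of intermediate cytosines.

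**Figure D3:**
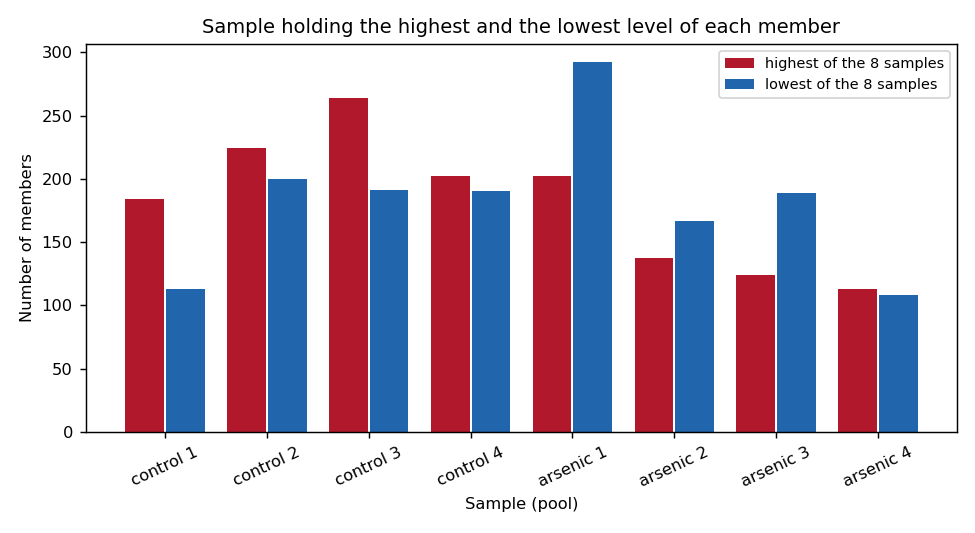
Number of members at which each of the 8 pools had the highest (red) or the lowest (blue) level. Arsenic 1 was the lowest pool at 292 members and control 3 the highest at 264, whereas arsenic 4 was either extreme at fewest members, 113 and 108.

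The widest ranges were at single cytosines. At the intergenic cytosine chr12:20312030, 503749 bases from the nearest start, the level was 5.71, 33.7, 88.6 and 13.3% in the control pools and 46.8, 38.1, 44 and 41.2% in the arsenic pools. Both extremes were control pools: 31 of 35 reads were methylated in control 3 (Wilson interval 74 to 95.5%) and 2 of 35 in control 1 (1.58 to 18.6%). At chr16:32113349, 13560 bases from the start of Cep19, the level was 64.7, 75, 100 and 42.9% in the control pools and 18.8, 84.6, 68.8 and 74.2% in the arsenic pools. The next members by range were near 4930591A17Rik, Crhr2 and Hs2st1 and in an intron of Gys2, the liver glycogen synthase, with ranges of 73.3 to 74.6 points. The intergenic ones lay 247727, 3311 and 173434 bases from the named starts, in that order. At the Gys2 cytosine, chr6:142470957, the level was 33.3, 93.3, 47.7 and 22.9% in the control pools and 62.5, 69.2, 20 and 55.6% in the arsenic pools. Its groups overlapped, as did those of the other 5 members with the largest ranges.

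The other strand of the same CpG was covered by at least 10 reads in all samples at 1067 members. At these the difference between the highest and the lowest sample was 53.3 points in the median on the member's own strand. On the other strand the same 2 samples differed by a median of 0 points (95% interval of the median -1.09 to 1.01), with 528 of 1067 (49.5%) above 0. Intermediate cytosines treated the same way had a median of 0.219 points, with 50.5% above 0, so this was not particular to the members. A difference of 25 points or more in the same direction was present at 65 (6.09%), compared with 5.13% of intermediate cytosines. With at least 30 reads on the other strand the median was 0.046 points over 687 members. The range over the 8 samples on that strand was 23.2 points in the median, close to the 22.3 points of the other strand of intermediate cytosines, and reached 50 points at 8 of 687 (1.16%, background 0.862%). At the 16 members whose range withstood the loss of any 1 sample the other strand was covered at 12, with 5 differences above 0, none of 25 points, and a median of -5.83 points.

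On the same strand the difference persisted over short distances. The samples highest and lowest at a member differed by a median of 15.7 points at same-strand cytosines 2 to 20 bases away, with 571 of 687 (83.1%) above 0. The median was 12.1 points at 21 to 50 bases, 7.49 at 51 to 100 bases, 4.17 beyond 100 and up to 200 bases and 0.481 at 200 to 1000 bases. At intermediate cytosines, whose own median range was 22 to 22.6 points in this comparison, the medians over these distances were 6.67, 4.65, 3.21, 2.13 and 0.53 points, the last slightly above that of the members. Cytosines of the other strand at the same distances differed by medians from 0 to 0.344 points for members and from 0.0296 to 0.141 points for intermediate cytosines. Members and intermediate cytosines were thus alike in showing a difference along the strand and little or none across the strands, and the members' larger differences along the strand went with their larger ranges. Same-strand cytosines within a fragment share reads with the member, so they are not separate measurements, whereas the other strand is read from other molecules.

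**Figure D4:**
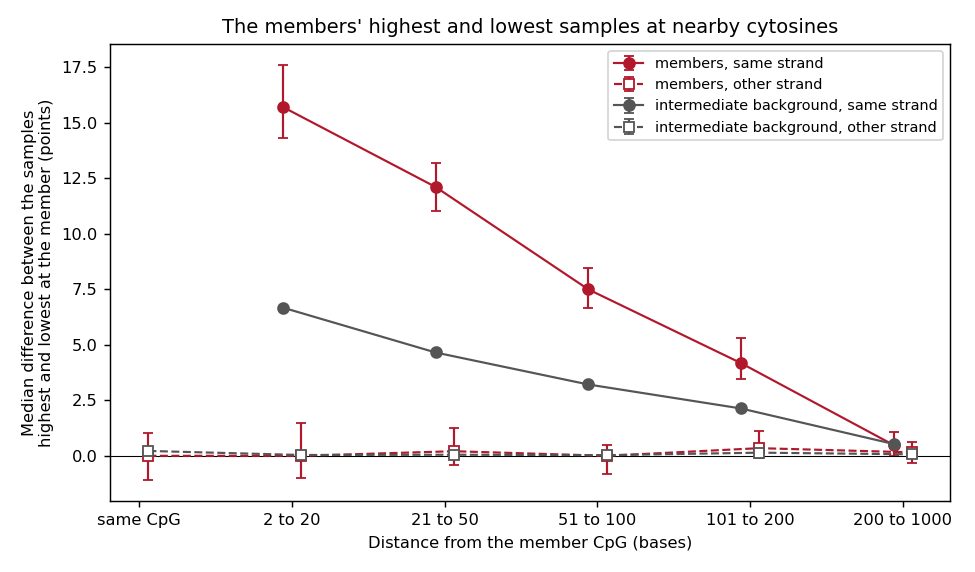
Median difference in level, in percentage points with the 95% interval of the median, between the samples that were highest and lowest at a member (red) or an intermediate cytosine (grey), at cytosines of the same strand (solid) and the other strand (dashed) by distance in bases. Same-strand medians of members fall from 15.7 points at 2 to 20 bases to 0.481 at 200 to 1000 bases, and other-strand medians lie near 0 at all distances.

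At 4 CpGs both strands met the rule, and they are described because of their rarity, chosen after their values were seen. In a promoter of Wdr34, chr2:30049765, the plus strand had 50, 26.7, 60.5 and 32.5% in the control pools and 77.4, 76.9, 64 and 63.2% in the arsenic pools. The minus strand had 57.6, 70.7, 71.4 and 64.1% in the control pools and 63.6, 33.3, 70.3 and 85.2% in the arsenic pools. Arsenic pools were all higher on the plus strand, and the groups overlapped on the minus strand. For the sample pair that was extreme on the plus strand, the minus-strand difference was -7.1 points at Wdr34, 38.3 near Bloc1s4 (chr5:36764158), 2.99 in Ppp1r13l (chr7:19373136) and -37.3 in Kdm6b (chr11:69404337). Arsenic 1 was the lowest pool on both strands near Bloc1s4, with 16.1 and 17.6%.

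Single members had the same contrast on both strands, at a rate near the background given above. The largest carry-over was in Slc39a4, which encodes an intestinal zinc importer, at chr15:76612873. The level was 50.6, 74, 86.4 and 63.6% in the control pools and 30.6, 57.4, 55.9 and 53.1% in the arsenic pools. On the other strand, with 10 to 38 reads, it was 37.9, 50, 81.6 and 29.4% in the control pools and 0, 35.7, 41.7 and 50% in the arsenic pools. Control 3 was the highest and arsenic 1 the lowest on both strands. The next differences on the other strand were 65.8 points in Tbxa2r, the thromboxane receptor, 60 near Gm2721, 54.5 near Wfdc11, 52.9 in Bach2, a lymphocyte transcription factor, and 52.7 in Atp8b1. These were picked as the largest values of their kind, and other strands covered by 10 to 23 reads in the least covered pool carry wide counting errors.

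The control and arsenic groups did not overlap at 47 members (3.24%), of which 33 were lower and 14 higher in all arsenic pools. The same held for 2.49% of all autosomal cytosines with this coverage (1.45% lower and 1.03% higher in arsenic) and for 2.95% of intermediate cytosines, so the share among members was near the background. The mean level over the members was 57.5, 56.7, 57.7 and 56.3% in the control pools and 54.1, 55.2, 54.5 and 56.5% in the arsenic pools. Arsenic 4 lay above control 4, so these means overlapped. At intermediate cytosines they were 59.5 to 60% in the control pools and 58.7 to 59.5% in the arsenic pools. The median difference, arsenic minus control, was -2.28 points at the members and -0.721 at intermediate cytosines. The promoters of maternally methylated imprinted genes, the marker list above, had 57.8, 58.4, 60.1 and 58.2% in the control pools and 52.8, 54.2, 54 and 60.6% in the arsenic pools, so arsenic 1 to 3 were below all control pools there too, and the part of this in the members' difference was not tested.

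Among members with separate groups, those with the widest gaps were described on both strands. The largest gap with a lower arsenic level was in an intron of the noncoding gene 3110009F21Rik, chr12:110155222, with 46.7, 45.8, 43.9 and 56.2% in the control pools and 5.56, 26.4, 13.3 and 10.5% in the arsenic pools. Its other strand had 20, 11.6, 31.7 and 23.5% in the control pools and 20.5, 6.52, 37 and 42.6% in the arsenic pools, a difference of 4.93 points in the opposite direction. The next were near Acot5, an acyl-CoA thioesterase gene, near Zfp648 and in Npas3, a neuronal transcription factor gene. At the cytosine near Zfp648, capitalised above, the level was 81.5, 73.7, 76.5 and 76.7% in the control pools and 38.5, 63, 52.9 and 20% in the arsenic pools. On its other strand it was 48.1, 49, 69.6 and 72.4% and 48.4, 75, 61.4 and 38%, and the groups overlapped there.

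Of the 14 members higher in all arsenic pools, those with the widest gaps, 1 per chained group, lay in Kdm2b, whose product binds unmethylated CpG islands, in Plch2, a phospholipase C gene, and near Cnih3 and Cbln2. The intergenic ones were 69930 bases from the Cnih3 start and 392861 bases from the Cbln2 start. A further Kdm2b member of the same fragment and strand, chr5:122882514, also had separate groups, with 22.2, 18.8, 22.2 and 2.33% in the control pools and 30.8, 28.9, 27 and 52.9% in the arsenic pools. In Plch2, chr4:155000705, the level was 45.5, 37.5, 68.2 and 80% in the control pools and 100, 89.7, 88.5 and 87.3% in the arsenic pools. Its other strand had 70.8, 85.7, 88.8 and 83.3% in the control pools and 76.3, 83.3, 82.1 and 85.7% in the arsenic pools. In Kdm2b, chr5:122882433, the level was 22.6, 6.12, 17 and 26.3% in the control pools and 34.7, 58.1, 35.6 and 38.5% in the arsenic pools. The other strand had 39.6, 26.5, 44.3 and 50% in the control pools and 41, 25.7, 37.5 and 36.3% in the arsenic pools. Neither member's group difference was seen on the other strand, where arsenic minus control was -0.269 points in Plch2 and -4.98 in Kdm2b.

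The other-strand level of these 8 members was tested, since the rule did not use it. Exact two-sided permutation over the 70 assignments of 4 of 8 samples gave p from 0.114 near Cbln2 to 1 in Plch2, and 0.816 to 1 after Benjamini-Hochberg adjustment over the 8, where the smallest p this design allows is 0.029. Even at that smallest p, 1 member alone could not have passed 0.05 after this adjustment. The difference near Cbln2 was 8 points, with arsenic higher on both strands. Over all 47 members with separate groups, the other strand was covered at 38. It differed in the same direction at 18 of these. Its groups did not overlap at 1, in the promoter of Arhgef2 (chr3:88616074), where arsenic minus control was -23.2 points on the member's strand and 9.88 points, the opposite direction, on the other. The median difference was 24.2 points on the members' strand and, signed along it, -0.817 on the other strand. A difference on the other strand smaller than the spread between pools could not be detected with 4 pools a group.

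**Figure D5:**
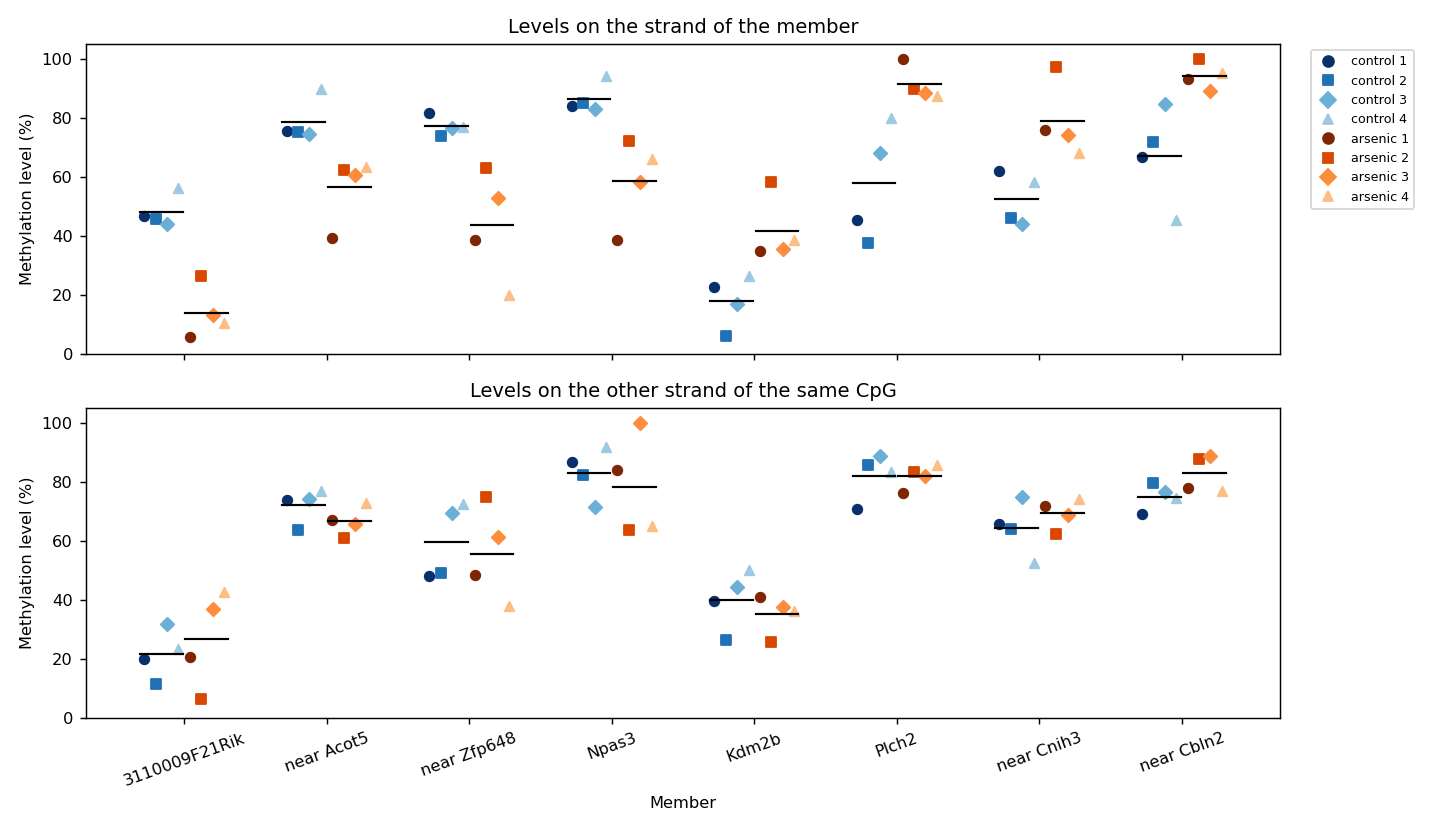
Methylation level (%) in each control (blue) and arsenic (orange) pool at the 4 members lower and the 4 higher in arsenic with the widest gap between groups, taking 1 per chained group of members, on the member's strand (top) and on the other strand of the same CpG (bottom), with group means as black lines. Groups are apart in the top panel, which is how these members were chosen, and overlap at all 8 in the bottom panel.

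By the likelihood-ratio test on pooled reads, with q of at most 0.01 and a difference of at least 10 points, 199 members (13.7%) were called differentially methylated cytosines (DMCs), 134 of them hypoDMCs and 65 hyperDMCs. The background was 0.673% of all autosomal cytosines with this coverage and 1.31% of intermediate ones. This test takes no account of the spread between pools, and the rule selects that spread, so nothing is read from the difference. At 156 of the 199 DMCs the control and arsenic pools overlapped, as they did at 1560 of 2738 DMCs among intermediate cytosines and 6586 of 11752 among all listed cytosines. The median overdispersion, the spread between pools of a group relative to binomial sampling, was 6.23 at members and 1.96 at intermediate cytosines. With the test scaled by overdispersion no member was called, and limma, run on log2 of methylated over unmethylated reads, gave no member an adjusted p of at most 0.01, its lowest adjusted p being 0.95. Neither test called any cytosine of the whole table (0 and 0), so these counts are not particular to the members. At an unadjusted limma p under 0.05 there were 175 members (12.1%), compared with 1.75% of intermediate cytosines, and since these are the levels that the rule selected for their spread, nothing is read from this difference either.

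Members in promoters of protein-coding genes were described by the largest ranges. In the promoter of Cavin4, which encodes a muscle caveolar protein, chr4:48663467 had 78.1, 83.3, 91.7 and 100% in the control pools and 31.2, 97.1, 83.3 and 74.2% in the arsenic pools. Arsenic 1 alone was far below the others. On the other strand, read 88 to 163 times, the 8 pools lay between 82.2 and 95.1%, and arsenic 1 was the highest. At Acta1, skeletal muscle actin, chr8:123894813 had 26.9, 41.8, 88.9 and 33.3% in the control pools and 70.6, 41.7, 67.9 and 58.3% in the arsenic pools. At Ltbp1, which encodes a TGF-beta binding protein, chr17:75178405 had 76.5, 52.6, 48.7 and 60% in the control pools and 15.2, 42.9, 48.8 and 39.5% in the arsenic pools. Groups overlapped at all 3, and they also overlapped at the promoter members of Commd1, Nat14, Abca16, Prr29 and Pf4, whose ranges were 58.8 to 60.9 points. At Pf4, a platelet chemokine gene, chr5:90772479 had 39.6, 31, 57.1 and 60.3% in the control pools and 66.7, 89.8, 49.2 and 60.4% in the arsenic pools.

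Imprinted genes, in which 1 parental allele is methylated, held 13 members in 6 of the 36 listed genes with a cytosine at this coverage. They were 2.2% of the 591 intermediate cytosines of these genes, compared with 0.664% over all intermediate cytosines, and 7 of the 13 were the Sgce members of a single fragment. The others were in Zdbf2, Mcts2, Zim1, Kcnq1 and Cdkn1c. The list is not complete, and 1 member each lay in the imprinted genes Peg12 (chr7:62463703) and Usp29 (chr7:6800532), looked up after their values were seen. The 3 members at Zrsr1, also a listed gene, are not in this count, because the annotation step gave them to the promoter of Commd1. In the promoter of the retrogene Mcts2, chr2:152687120 had 70.4, 36.7, 61.5 and 63.2% in the control pools and 17.4, 68.4, 34.8 and 48.8% in the arsenic pools. Its other strand, read 93 to 216 times, lay between 54.5 and 69.5%, with arsenic 1 the highest there and the lowest on the member's strand. In the 3′UTR of Cdkn1c, an inhibitor of cyclin-dependent kinases, the neighbouring members chr7:143458936 and chr7:143458950 were both highest in control 1 (89.4 and 76.5%) and lowest in control 2 (36.4 and 25.5%). In reads of the other strand, control 1 minus control 2 was -10.6 and 8.65 points. In Zim1, chr7:6678078 ranged from 42.9% in control 3 to 100% in control 2, whereas its other strand, read 182 to 261 times, lay between 64.3 and 73.8%.

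The other gene lists held from 0 to 3 members each. Of the spermatogonial and germline genes, 3 of 20 with a cytosine at this coverage had 1 member each, which made up 1.24% of their 241 intermediate cytosines, compared with 0.664% over all intermediate cytosines. In Zbtb16, a transcription factor that maintains spermatogonial stem cells, the intronic cytosine chr9:48730172 had 75, 78.1, 21.1 and 78.3% in the control pools and 91.3, 59.5, 73.8 and 69.4% in the arsenic pools. Control 3 was by far the lowest there, and its other strand was at 79.5%. In Kit, the receptor of differentiating spermatogonia, chr5:75597042 had 79.4, 61.3, 62.8 and 78.7% in the control pools and 24.2, 56.5, 65.2 and 60% in the arsenic pools. In Gfra1, the GDNF co-receptor of stem cells, chr19:58309917 ranged from 20.5% in arsenic 3 to 77.6% in arsenic 1. Among genes of DNA methylation, the de novo methyltransferase gene Dnmt3a had 1 intronic member (among 98 intermediate cytosines), chr12:3907183, ranging from 12.5% in control 1 to 68.2% in control 3. Groups overlapped at each of these 4 members. No member lay in the listed Sertoli genes (39 intermediate cytosines), in the listed Leydig, peritubular and immune genes (43) or in the genes next to individually variable IAP retrotransposons (104). At the share over all intermediate cytosines each of these 3 lists would hold fewer than 1 member.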

How the data were processed

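RRBS libraries of 4 control and 4 arsenic pools were analysed. Per the labels and the study's methods, the authors trimmed reads with Trim Galore 0.6.5, aligned them to mm10 with Bismark 0.22.3 and merged samples with methylKit 1.22.0, keeping the strands apart and cytosines with at least 10 reads in all samples. The deposited table gives raw counts of coverage, methylated and unmethylated reads per cytosine and sample, and replicates were not pooled. All positions held a C on the listed strand of GRCm38.p6. Levels were 100 times methylated reads over coverage. Ranges were rounded to 9 decimals before the rule of 50 points was applied, so that exact ties counted.

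Groups were compared by a likelihood-ratio test of a logistic regression on pooled counts over all listed cytosines on chromosomes 1 to 19, X and Y with Benjamini-Hochberg adjustment, by the same test scaled by overdispersion, and by limma 3.58.1 (R 4.3.3) on log2 ratios with a pseudocount of 1. Scripts used Python 3.11.15, numpy 2.4.6 and scipy 1.17.1, and the tests were run on simulated data. The simulated counts were binomial, without added spread between pools, so they check the computation and not the calls made on these data. Other-strand levels were compared by exact permutation with Benjamini-Hochberg adjustment. Coverage limits precision, and 95% Wilson intervals take reads as independent and cover counting error only, since reads carry no stated molecular identifiers. Annotation came from 45756 curated RefSeq transcripts of 26180 genes, and fragments from CCGG positions in the reference of strain C57BL/6J. At a CCGG the plus-strand cytosine was given to the fragment on its right and the minus-strand cytosine to that on its left, the fragments whose read starts hold them.

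Sites were named by rule: the 8 groups with most members, the 6 largest ranges, the 4 lower and 4 higher members with the widest gap between groups (1 per group of chained members), up to 8 promoter members, the 6 largest differences on the other strand, and all members in fixed gene lists. Members and lists were chosen with earlier results of these data known. Alternatives covered coverage, range, strand summing, left-out samples, the tests and the distances. Cytosines outside the assembled chromosomes were left out. No 2 samples had equal counts at more than 1.32% of cytosines. The study's methods call each pool a biological replicate. P-values of limma, of the test scaled by overdispersion and of the permutation test measure the spread between these pools. Those of the likelihood-ratio test on pooled counts do not, since it takes reads as independent.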

Additional observations from a re-analysis of the deposited data

Results flagged for a closer look

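In 11 of 172 tested groups of 4 pools 1 pool stood apart by Dixon's test, that is, its gap to the nearest pool was a larger share of the group's range than the 95% critical value. Chance alone gives about 1 in 20, so the number of such groups was near what chance gives, and the members were selected for extreme values. Among the counts per pool, control 1 was the lowest sample at 113 members, fewer than the 190 to 200 of the other control pools. Near 4930591A17Rik (chr2:179167209) arsenic 4 was at 33.3%, with the other arsenic pools at 48.7 to 51.2%. Control 4 stood above the other control pools at 89.7% near Crhr2 (chr6:55136327), at 90% near Hs2st1 (chr3:144396782) and at 89.7% near Acot5 (chr12:84062522). At the Acot5 cytosine arsenic 1 also stood apart, at 39.4% against 60.7 to 63.3% in the other arsenic pools. In Kdm2b (chr5:122882433) arsenic 2 was at 58.1% and the other arsenic pools at 34.7 to 38.5%. In Zbtb16 (chr9:48730172) control 3 was at 21.1% and the other control pools at 75 to 78.3%. In Meioc (chr11:102666347) control 3 was at 71.7% and the other control pools at 36 to 41.7%. In Slc39a4 (chr15:76612873) arsenic 1 was at 30.6% and the other arsenic pools at 53.1 to 57.4%. In Atp8b1 (chr18:64531404) arsenic 3 was at 24.6% and the other arsenic pools were all at 22.2%, a small gap that stands apart only because those 3 were equal.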

How the results depend on the processing

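The number of members depended strongly on the thresholds, as their construction implies. It was 6783 with a coverage of at least 20, 96 at 50, 9613 with a range of at least 40 points, 169 at 60, 554 with both strands of a CpG summed, and 413 without fragments of 100 to under 200 bases. In the same order, members with separate groups numbered 204, 4, 255, 4, 13 and 16, and DMCs 580, 26, 758, 28, 76 and 58. Leaving out the deepest 0.1% changed none of the 3 counts, and without cytosines whose 8 unmethylated counts were all even they were 1186, 38 and 164. Without 1 sample in turn there were 1205 to 1292 members, 70 to 94 with separate groups (70 without arsenic 2, 94 without control 1, separation being easier with 7 samples) and 161 to 209 DMCs. No member was a DMC with overdispersion scaling (0), by limma (0) or by limma with a replicate block (0). A Cochran-Mantel-Haenszel test with the replicate block, which also takes reads as independent, gave 206. Correlations of deviations were -0.00132 to 0.00251 between same-numbered pools and -0.00206 to 0.00158 between the other pools of the 2 groups. Levels of single cytosines carry counting error, so these values cannot decide whether the pools were paired. The cause of the differences between the tests was not tested. Promoters of 2 kb before to 500 bases after a start held 109 members. With a coverage of at least 20, promoters of 1 kb before to 100 bases after a start held 291. The median carry-over to the other strand stayed within its interval in the alternatives run for it (other-strand coverage, CCGG cytosines, all-even counts and left-out samples), from -0.318 without control 2 to 0.695 without arsenic 1. It was not recomputed under the other thresholds. Same-strand carry-over at 2 to 20 bases was 16.1 points without CCGG cytosines and 16.6 without members of all-even counts. The alternatives on even counts, on 100 to under 200 bases, on same-strand distance and on left-out samples for the other-strand carry-over were added after seeing the data. The members' median coverage of 43 to 59 reads limits the levels of single pools.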
